A study of Mus musculus with 12 samples.

Results

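Imprinted growth genes are transcribed mainly from the maternal or from the paternal copy, and the 10 described here are those listed as H19, Igf2, Dlk1, Meg3, Rian, Mirg, Peg3, Plagl1, Cdkn1c and Grb10. They were found in the count table of heart RNA by their gene symbol. Of the 10 genes, 6 had a row among the 25171 loci of the table, namely Igf2, Dlk1, Peg3, Plagl1, Cdkn1c and Grb10. H19, Meg3, Rian and Mirg, which are non-coding RNAs, had no row and were not analysed here, and 21914 of the 22022 loci with a GENCODE M21 identifier were protein-coding genes.

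The 12 hearts came from 2 mouse models that carry, at Rosa26 and behind a stop sequence flanked by loxP sites, the human gene NOTCH2NLC expanded to 98 GGC repeats, so that all 4 groups carried the conditional transgene. EIIa-tg mice also carried Cre under the EIIa promoter, which acts in the early embryo and so in all tissues, and EIIa-ctl were littermates without this Cre. Both groups were 30 days old. Myh6-tg mice were labelled as carrying Myh6-creERT2, a Cre of cardiomyocytes that tamoxifen activates, and received 3 injections of tamoxifen at 75 mg per kg from day 60, whereas Myh6-ctl mice, labelled with the same genotype, received corn oil. Both of these groups were 90 days old, and each of the 4 groups had 3 hearts, which the labels call biological replicates. The genotype labels of EIIa-tg replicates 2 and 3 differ from that of replicate 1, and their group was taken from their titles.

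Imprinted genes act largely before birth and in the weeks after it. In most of them DNA methylation set in the germ line marks a control region and silences one parental copy. Igf2 (insulin-like growth factor 2, a secreted growth factor) and Dlk1 (a membrane protein of the Delta-like family) are expressed from the paternal copy, as are Peg3 and Plagl1, which encode zinc-finger proteins. Cdkn1c (p57, an inhibitor of cyclin-dependent kinases) and Grb10 (an adaptor that dampens insulin and IGF receptor signalling) are expressed from the maternal copy in most tissues. In the rodent heart many genes of this group decline steeply after birth, together with the division of cardiomyocytes.

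All positions are those of GRCm38 in GENCODE M21. Igf2 lies on the minus strand at chr7:142650766-142666816, Cdkn1c on the minus strand at chr7:143458339-143461050 and Peg3 on the minus strand at chr7:6703892-6730431. Plagl1 lies on the plus strand at chr10:13060504-13131694, Grb10 on the minus strand at chr11:11930508-12038683 and Dlk1 on the plus strand at chr12:109452823-109463336. Of the genes without a row, H19 lies at chr7:142575529-142578143, and Meg3 (chr12:109541001-109571726), Rian (chr12:109603940-109661716) and Mirg (chr12:109729764-109749460) follow Dlk1 on chromosome 12. Another protein-coding gene, Gm49394, runs over Igf2 on the same strand at chr7:142650769-142669942. Their exons share 3596 bases, which are 62.8% of the exonic bases of Igf2 and 75.9% of those of Gm49394.

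Promoter windows are shown for Peg3 and Igf2, the genes that passed a test below. Each window runs from 250 bases before to 50 bases after a start, is read 5′ to 3′ on the strand of the gene and was taken from RefSeq on GRCm38.p6. Capitals mark a cAMP response element (TGACGTCA), the palindrome GGGGCCCC bound by the Plagl1 protein, a GC box (GGGCGG) or a CCAAT box, each searched on both strands, so that ATTGG is a CCAAT box on the opposite strand.
Peg3 (chr7:6730370-6730669, minus strand): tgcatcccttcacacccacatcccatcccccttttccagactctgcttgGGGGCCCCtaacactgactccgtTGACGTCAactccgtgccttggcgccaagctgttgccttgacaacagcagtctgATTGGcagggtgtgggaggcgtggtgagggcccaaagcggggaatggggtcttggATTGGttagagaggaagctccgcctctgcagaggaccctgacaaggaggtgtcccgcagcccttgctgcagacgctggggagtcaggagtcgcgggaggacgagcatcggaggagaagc
Igf2 (chr7:142657447-142657746, minus strand): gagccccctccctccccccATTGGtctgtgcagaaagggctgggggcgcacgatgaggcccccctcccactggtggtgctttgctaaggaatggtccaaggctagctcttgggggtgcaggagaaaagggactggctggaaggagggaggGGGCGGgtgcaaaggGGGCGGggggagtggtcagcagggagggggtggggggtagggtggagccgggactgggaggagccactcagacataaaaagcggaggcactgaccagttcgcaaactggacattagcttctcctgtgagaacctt
The Peg3 window holds the cAMP response element, GGGGCCCC and both CCAAT boxes. Among 32851 windows of the same length, 1.79% hold TGACGTCA, 1.08% hold GGGGCCCC, 35.7% hold GGGCGG and 37.4% hold CCAAT. The Igf2 window, the most downstream of the 4 windows listed for Igf2, holds GC boxes and a CCAAT box, which are frequent in promoters. A match is a run of letters and not a measured binding site.

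Totals ranged from 38343106 to 50969834 counts per heart, so that 3 counts, the smallest number taken as detected, corresponded to 0.0589 to 0.0782 CPM, the counts of a gene divided by those of the whole library and scaled. Levels are given as normalised CPM, in which counts are divided by the heart's total and its TMM factor, and the factors lay between 0.825 and 1.30. Transcripts of the mitochondrial genome took 28.5% to 38.3% of the counts in EIIa-ctl, EIIa-tg and Myh6-ctl hearts and 15.5% to 18.6% in Myh6-tg hearts. The extraction text of the labels names brain, but the 10 cardiomyocyte markers were present in every group, with summed levels from 10563 to 49960 normalised CPM per heart. Y-linked counts were 4224 to 7307 in replicate 1 of every group and at most 2 elsewhere.

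Esr1 went against the labels. The creERT2 protein contains part of the oestrogen receptor that Esr1 encodes, and both Myh6 groups were labelled as carrying it. Esr1 had 103037, 53433 and 54306 counts in the Myh6-ctl hearts but 61, 116 and 53 counts in the Myh6-tg hearts, close to the 15 to 54 counts of the EIIa hearts. Every comparison of the libraries labelled Myh6-tg and Myh6-ctl therefore also compares hearts that differ in this RNA. Sqstm1, which encodes p62, was higher in both transgenic groups than in their controls, by a log2 fold change of 1.52 (SE 0.18, edgeR adjusted p = 0.0135) in the EIIa model and 1.54 (SE 0.31, edgeR adjusted p = 0.0166) in the Myh6 model.

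Genes were tested with edgeR's quasi-likelihood test in the 6 hearts of each comparison. A gene passed with an adjusted p under 0.05 over all genes tested, and was a differentially expressed gene (DEG) with an adjusted p under 0.01 and an absolute log2 fold change of at least 1. In EIIa-tg against EIIa-ctl hearts 1 of the 6 genes passed (Igf2, higher), beside 17.0% of the 14908 genes tested. In Myh6-tg against Myh6-ctl hearts 1 of 5 passed (Peg3, higher), beside 18.3% of 15298 genes. None of the 5 tested passed between Myh6-ctl and EIIa-ctl hearts, beside 0.0334% of 14990 genes, and none of 6 passed for the difference between the models, beside 3.92% of 15929 genes. No member was a DEG in any of the 4 tests, none of which took replicate numbers as pairs. Of all genes, 0%, 3.97%, 0.0334% and 0.622% were DEGs in the same order. EdgeR thus called none of the 14908 genes of the EIIa comparison a DEG, so that no member could be one there. At these thresholds the paper reports DEGs in both models, from DESeq2. At an unadjusted p under 0.05 there were 2 of 6 members in the EIIa comparison, 1 of 5 in the Myh6 comparison, 0 of 5 between the controls and 1 of 6 for the difference, beside 34.9%, 34.1%, 11.3% and 19.4% of all genes tested. DESeq2 passed 1, 1, 0 and 0 members, and its DEGs were 0, 1, 0 and 0. The share of all genes that DESeq2 called is not given here, so its counts, also those below, stand without a comparison. The first 2 comparisons share their control hearts with the third, and all 12 hearts enter the difference.

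**Figure D1:**
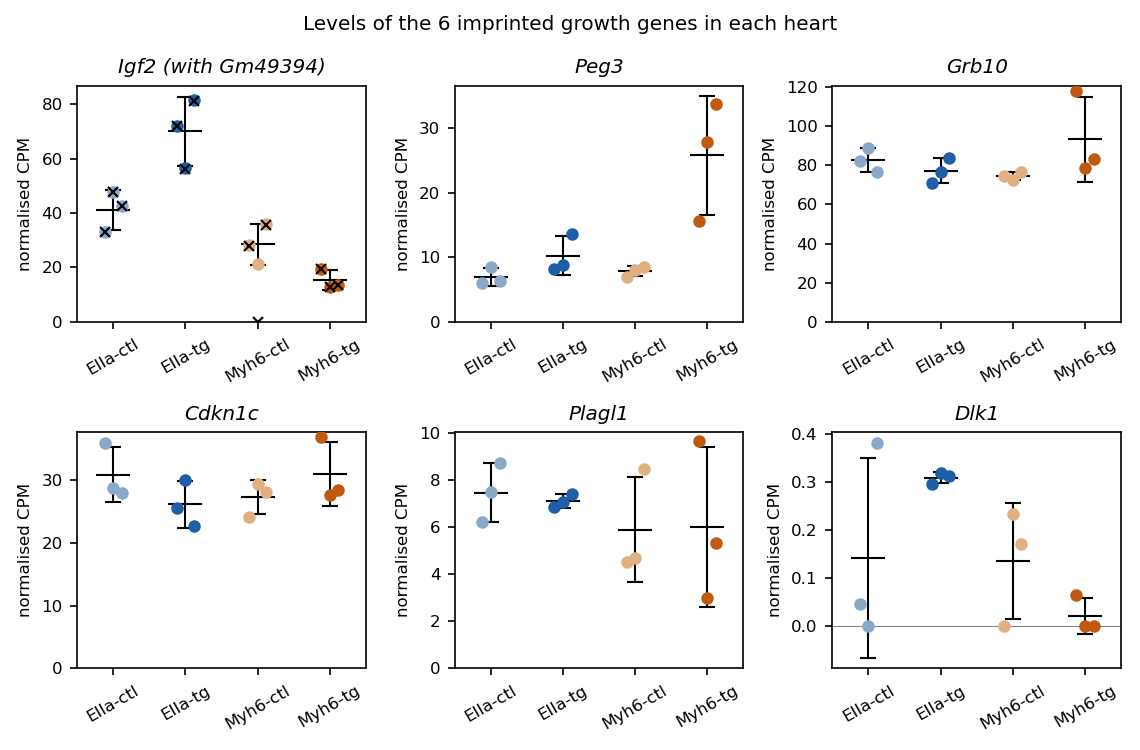
Normalised CPM (y axes, starting at 0 for all genes but Dlk1) of the 6 genes in each of 3 hearts per group (x axes), with the mean and SD as black bars. Coloured points of the first panel are Igf2 with Gm49394 and crosses are Igf2 alone, which was 0 in Myh6-ctl replicate 2. Peg3 was above 15 in the Myh6-tg hearts only, and Igf2 was highest in the EIIa-tg hearts.

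Compared per length, as FPKM of the authors, Cdkn1c, Grb10 and Igf2 were the most abundant of the 6 genes and Dlk1 the least. In EIIa-ctl hearts the means were 15.2 ± 2.16 FPKM (SD, n = 3) for Cdkn1c, 14.4 ± 1.57 for Grb10, 8.97 ± 1.74 for Igf2, 1.25 ± 0.227 for Plagl1, 0.706 ± 0.168 for Peg3 and 0.0673 ± 0.111 for Dlk1. Cdkn1c and Grb10 lay within each other's spread in all 4 groups. In EIIa-tg hearts Igf2 had a mean of 17.5 ± 4.14 FPKM, above those of Cdkn1c (14.5 ± 1.47) and Grb10 (15.5 ± 2.10), and its hearts (17.6, 13.3 and 21.6) overlapped those of both. In Myh6-tg hearts Peg3, at 3.57 ± 1.55 FPKM, had a mean above that of Plagl1, at 1.31 ± 0.663 FPKM.

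Igf2 was the member that passed in the EIIa model. Its counts were 1452, 1827 and 1564 in EIIa-ctl hearts and 2919, 2839 and 3643 in EIIa-tg hearts. In normalised CPM these were 33.1, 47.6 and 42.5 in controls and 72.0, 56.4 and 81.1 in EIIa-tg hearts. Every EIIa-tg heart was above every control heart. Igf2 was higher by a log2 fold change of 0.76 (SE 0.17, edgeR adjusted p = 0.0253), or 1.69-fold. The call was lost without EIIa-ctl replicate 1 (adjusted p = 0.0929), EIIa-ctl replicate 3 (0.0947), EIIa-tg replicate 1 (0.0794) or EIIa-tg replicate 3 (0.0869), with log2 fold changes from 0.62 to 0.78. In the hearts with replicate numbers 2 and 3, which had no Y-linked counts, the log2 fold change was 0.61 (adjusted p = 0.216).

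In the Myh6 model the result for Igf2 depended on whether the counts of Gm49394 were added. Igf2 had 1236, 0 and 1883 counts in Myh6-ctl hearts and 916, 586 and 722 in Myh6-tg hearts. In Myh6-ctl replicate 2, the heart with 0 counts for Igf2, Gm49394 had 820 counts, against 0 to 22 in the other 11 hearts. Only 2 genes of the table, Igf2 and Ap4b1, had 0 counts in a single heart and at least 500 in all the others, and that heart was Myh6-ctl replicate 2 for both (Ap4b1 was named after its values were seen). The log2 fold change of Igf2 as deposited was -0.47 (SE 1.27, edgeR adjusted p = 0.830). Without Myh6-ctl replicate 2 it was -1.06 (adjusted p = 0.0435). Why Igf2 had 0 counts in that heart was not tested.

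**Figure D2:**
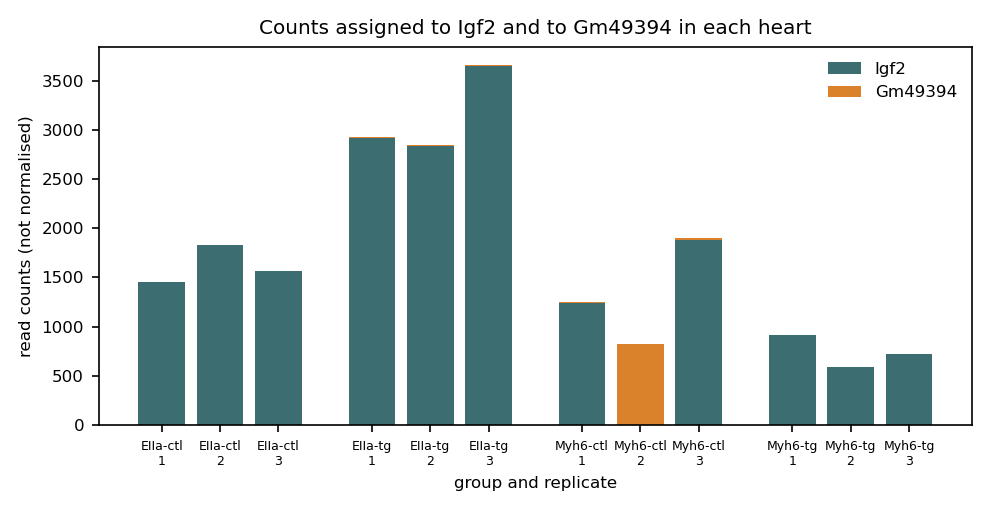
Read counts, not normalised (y axis), assigned to Igf2 and to Gm49394 in each of the 12 hearts (x axis), stacked. The whole signal of Myh6-ctl replicate 2, 820 counts, stands on Gm49394, and the 3 Myh6-tg hearts hold 593 to 916 counts, below the 1251 to 3658 counts of the other 8 hearts.

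The counts of both genes were therefore also summed, a choice made after the data were seen. With the sum, Igf2 reached 28.3, 21.2 and 36.1 normalised CPM in Myh6-ctl hearts and 19.6, 12.9 and 13.7 in Myh6-tg hearts. In this unit every Myh6-tg heart was below every Myh6-ctl heart, though the nearest pair, 19.6 and 21.2, lay close together. Without the TMM factors the groups overlapped. CPM was then 24.6, 17.5 and 37.4 in Myh6-ctl and 21.3, 15.5 and 17.8 in Myh6-tg hearts. The FPKM values overlapped as well. The log2 fold change was -0.90 (SE 0.26, edgeR adjusted p = 0.0481), and 2 of 5 members then passed in this comparison, beside 18.4% of all genes. The call was lost without Myh6-ctl replicate 1 (adjusted p = 0.120), Myh6-ctl replicate 3 (0.128), Myh6-tg replicate 2 (0.163) or Myh6-tg replicate 3 (0.161), with log2 fold changes from -0.90 to -0.70. On log2 FPKM it was also lost, with a log2 fold change of -0.32 (limma adjusted p = 0.427) while the median of all genes lay at 0.34.

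The summed Igf2 moved in opposite directions in the models. In the EIIa comparison its log2 fold change was 0.77 (SE 0.17, edgeR adjusted p = 0.0251), where again 17.0% of all genes passed. The difference between the models, the Myh6 change minus the EIIa change, was -1.67 (SE 0.33, edgeR adjusted p = 0.0173), and it made 1 of 6 members pass, beside 3.92% of all genes. Without EIIa-ctl replicate 1 the difference was -1.54 (adjusted p = 0.0520), and it passed when any one of the other 11 hearts was left out. On log2 FPKM it was between -1.31 and -1.20 with limma adjusted p from 0.0864 to 0.148. With the counts as deposited it was -1.24 (SE 1.38, adjusted p = 0.673). Age, the Cre, the injections and the Esr1 RNA differ between the models and cannot be told apart.

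Peg3 was the member with the largest change in the Myh6 model. Its normalised CPM was 7.01, 8.0 and 8.50 in Myh6-ctl hearts and 15.6, 28.0 and 33.8 in Myh6-tg hearts. The groups did not overlap, and replicate 1 was the lowest of the Myh6-tg hearts. Peg3 was higher by a log2 fold change of 1.72 (SE 0.29, edgeR adjusted p = 0.01002), or 3.30-fold, which missed the p threshold of a DEG narrowly. With the replicate number as a block the value was 1.66 (adjusted p = 0.00667), within the DEG thresholds. Without Myh6-ctl replicate 1 it was 1.65 (adjusted p = 0.0533), and it passed when any of the other hearts was left out.

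In the EIIa model Peg3 had 6.01, 8.49 and 6.30 normalised CPM in controls and 8.23, 8.74 and 13.7 in EIIa-tg hearts. One control heart lay above 1 EIIa-tg heart. The log2 fold change was 0.56 (SE 0.23, edgeR adjusted p = 0.125) and did not pass. The difference between the models was 1.16 (SE 0.39, edgeR adjusted p = 0.128), so that a change particular to the Myh6 model was not shown. Without Myh6-tg replicate 1 that difference was 1.41 (adjusted p = 0.0156).

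Some fibroblast, smooth muscle and cardiomyocyte markers also passed in the Myh6 comparison. Among the 3 Myh6-tg hearts the fibroblast and activated fibroblast sums ran in the order of Peg3. The sums of the pericyte and smooth muscle list and of the cardiomyocyte list ran in the reverse order. These orders of 3 hearts were not tested. The 10 activated fibroblast markers summed to 397 to 556 normalised CPM in Myh6-ctl hearts and to 1634, 5130 and 5529 in Myh6-tg replicates 1, 2 and 3, the order of their Peg3 levels, and 8 of 10 passed and were higher. The 10 fibroblast markers summed to 3769 to 4672 in Myh6-ctl hearts and to 3708, 8541 and 9316 in the same Myh6-tg hearts, and 4 of 10 passed and were higher. In Myh6-tg replicate 1 Peg3 was above every Myh6-ctl heart, and the fibroblast sum was below all of theirs. The 10 pericyte and smooth muscle markers summed to 3106 to 4332 in Myh6-ctl hearts and to 13693, 10081 and 9522 in Myh6-tg replicates 1, 2 and 3, and 5 of 10 passed, 2 higher and 3 lower. Their median log2 fold change was 0.03, so the list as a whole did not rise as its sum did. The 10 cardiomyocyte markers summed to 33646 to 43998 in Myh6-ctl hearts and to 37616, 13474 and 10563 in the Myh6-tg hearts, and 4 of 10 passed and were lower. All these marker counts stand beside 18.3% of all genes in the Myh6 comparison. The part of these markers in the result was not tested, and in bulk tissue fewer cells of a type and less RNA per cell cannot be told apart. For Igf2 the fibroblast sums were 2997 to 3987 in EIIa-ctl and 5017 to 7009 in EIIa-tg hearts, and 10 of 10 macrophage markers passed and were higher in EIIa-tg hearts, with sums of 1079 to 1417 against 510 to 783. The sums were 3105 to 3333 in EIIa-ctl and 4019 to 5619 in EIIa-tg hearts for pericyte and smooth muscle markers, and 41166 to 49960 and 22503 to 36670 for cardiomyocyte markers. Of the 10 pericyte and smooth muscle markers 4 passed, 2 higher and 2 lower, with a median log2 fold change of -0.09. Of the 10 cardiomyocyte markers 2 passed, 1 higher and 1 lower, with a median of -0.66. The marker counts of the EIIa comparison stand beside 17.0% of all genes, a share near that of the cardiomyocyte markers. The part of any of these markers in the Igf2 result was not tested either. In Myh6-tg replicates 2 and 3 the fibroblast sums were highest of all hearts, and summed Igf2 was lowest in normalised CPM.

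**Figure D3:**
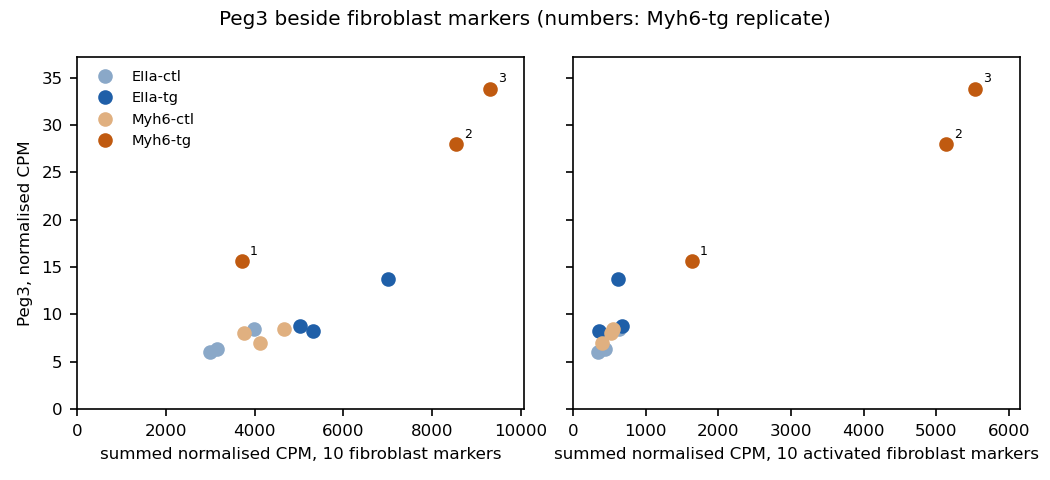
Peg3 in normalised CPM (y axes) against the summed normalised CPM of 10 fibroblast markers (left) and 10 activated fibroblast markers (right), 1 point per heart, coloured by group, with the replicate number beside Myh6-tg hearts. Myh6-tg replicates 2 and 3 are highest on every axis, and replicate 1 has raised Peg3 at a fibroblast sum of 3708.

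Grb10 did not pass in any comparison. It had 82.0, 89.1 and 76.8 normalised CPM in EIIa-ctl, 71.2, 76.7 and 83.8 in EIIa-tg, 74.3, 72.6 and 76.5 in Myh6-ctl and 118, 78.5 and 83.3 in Myh6-tg hearts. The EIIa groups overlapped, and each Myh6-tg heart was above each Myh6-ctl heart. The log2 fold change was -0.10 (SE 0.10, edgeR adjusted p = 0.513) in the EIIa model and 0.33 (SE 0.20, edgeR adjusted p = 0.288) in the Myh6 model. On log2 FPKM the Myh6 value was 0.66 (limma adjusted p = 0.0318) where the median of all genes was 0.34.

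Cdkn1c did not pass either. Its levels were 36.0, 28.7 and 28.0 normalised CPM in EIIa-ctl, 25.6, 30.1 and 22.8 in EIIa-tg, 24.2, 29.4 and 28.2 in Myh6-ctl and 36.9, 27.6 and 28.5 in Myh6-tg hearts. The groups overlapped in both models. Its log2 fold change was -0.24 (SE 0.15, edgeR adjusted p = 0.277) in the EIIa model and 0.18 (SE 0.18, edgeR adjusted p = 0.523) in the Myh6 model, and on log2 FPKM the latter was 0.59 (limma adjusted p = 0.0449) beside the same median of 0.34.

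Plagl1 varied more within the 90-day groups than between any groups. It had 6.19 to 8.70 normalised CPM in EIIa-ctl, 6.83 to 7.39 in EIIa-tg, 4.50 to 8.44 in Myh6-ctl and 2.97 to 9.65 in Myh6-tg hearts. The log2 fold changes were -0.07 (SE 0.16, edgeR adjusted p = 0.785) in the EIIa model and 0.02 (SE 0.46, edgeR adjusted p = 0.979) in the Myh6 model. Dlk1 was low, with 2, 0 and 14 counts in EIIa-ctl, 12, 16 and 14 in EIIa-tg, 0, 9 and 9 in Myh6-ctl and 3, 0 and 0 in Myh6-tg hearts. Only in EIIa-tg did every heart reach the floor of 3 counts. It was tested in the EIIa comparison (edgeR adjusted p = 0.477) and for the difference (edgeR adjusted p = 0.383), and no fold change is given at these counts.

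**Figure D4:**
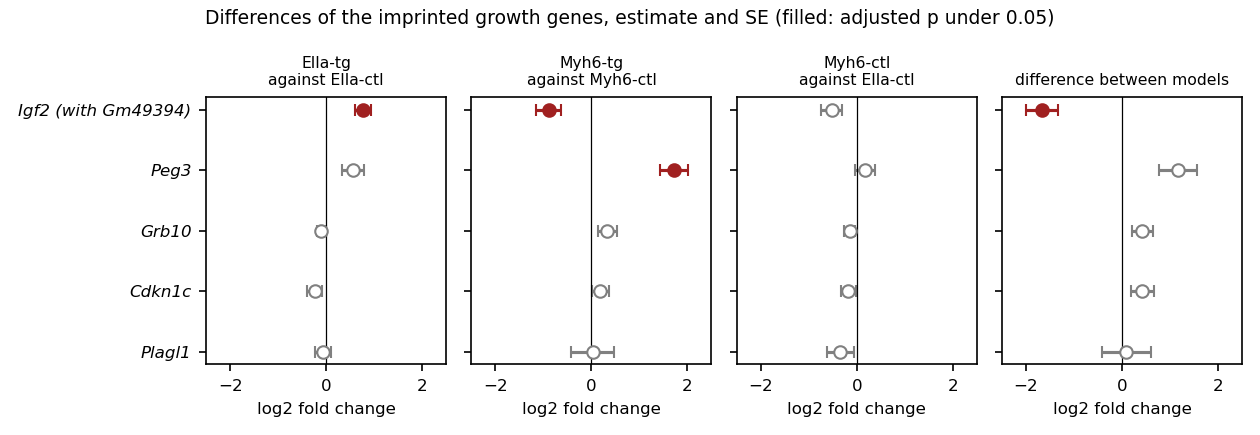
Log2 fold change with its SE (x axes) of 5 genes (y axis) in the 3 comparisons and for the difference between the models, from edgeR, with Igf2 summed with Gm49394 and filled points for an adjusted p under 0.05. Igf2 lies at 0.77 and -0.90 in the EIIa and Myh6 models, and Peg3 lies at 1.72 in the Myh6 model.

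The controls at day 90 and day 30 address how these genes differ between an adult and a juvenile heart, although the Cre allele and the injections differ with age and cannot be told apart from it. The log2 fold change of Myh6-ctl against EIIa-ctl hearts was -0.52 for summed Igf2 (SE 0.22, edgeR adjusted p = 0.418), 0.18 for Peg3 (SE 0.21, edgeR adjusted p = 0.810), -0.34 for Plagl1 (SE 0.28, edgeR adjusted p = 0.706), -0.18 for Cdkn1c (SE 0.15, edgeR adjusted p = 0.713) and -0.15 for Grb10 (SE 0.12, edgeR adjusted p = 0.699). Summed Igf2 had 33.1 to 47.6 normalised CPM at day 30 and 21.2 to 36.1 at day 90, and the groups overlapped. With the sum, 0 of 5 members passed, beside 0.0334% of all genes, and 1 had an unadjusted p under 0.05. Only 5 loci passed in this comparison (Esr1, Serpina3n, Frem2 and 2 loci without a gene name, named here after their values were seen).

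IGF2 and IGF1 signal through the receptors encoded by Igf1r and Insr, Igf2r binds IGF2 for degradation, and secreted binding proteins hold or release the ligands. Of 20 genes of this axis other than Igf2, 15 were tested. In EIIa-tg hearts 4 passed and were higher and 2 passed and were lower, or 40% of the 15 beside 17.0% of all genes, with a median log2 fold change of 0.17. In the Myh6 comparison 7 passed upward and 1 downward, or 53.3% beside 18.3%, with a median of 0.83. The medians over all genes tested were 0.02 and 0.03, and changes of the genes named from here on are log2 fold changes. For the difference between the models 3 of the 15 passed, or 20% beside 3.92%, with a median of 0.39 beside -0.04 over all genes. Between the controls edgeR passed 0 of 15, with 6 at an unadjusted p under 0.05, a threshold that 11.3% of all genes met, and 2 passed by DESeq2. Each heart was also left out in turn for the genes named by the rule in this and the other gene lists, an alternative chosen after the data were seen. Of their 34 calls, 4 passed whichever heart was left out, namely Igf1r and Slc22a3 in the Myh6 comparison and Igf1r and Igfbp7 for the difference between the models.

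Among the receptors, Igf1r had 20.1, 21.5 and 22.7 normalised CPM in Myh6-ctl and 56.0, 47.6 and 53.6 in Myh6-tg hearts. The groups were far apart, and Igf1r rose by a log2 fold change of 1.29 (SE 0.16, edgeR adjusted p = 0.00387), a DEG. In the EIIa model its log2 fold change was 0.20 (SE 0.12, edgeR adjusted p = 0.256), and the difference between the models was 1.08 (SE 0.18, edgeR adjusted p = 0.0102). Insr and Igf2r, given here for their role and not by the rule, had log2 fold changes between 0.01 and 0.19 in both models and passed in neither. Irs2, the adaptor of these receptors, was among the 8 genes that passed in Myh6-tg hearts, at 1.82.

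Of the binding proteins, Igfbp4 rose in EIIa-tg hearts, from 111 ± 19.5 to 244 ± 76.7 normalised CPM (SD, n = 3), by a log2 fold change of 1.14 (SE 0.22, edgeR adjusted p = 0.0208). Igfbp7 rose in Myh6-tg hearts, from 286 ± 80.1 to 986 ± 231 normalised CPM, by 1.78 (SE 0.30, edgeR adjusted p = 0.00928), and differed between the models by 1.76 (SE 0.34, edgeR adjusted p = 0.0158). Igfals, which encodes the acid-labile subunit that stabilises circulating IGF, fell in both, with a log2 fold change of -1.26 (SE 0.27, edgeR adjusted p = 0.0233) in the EIIa and -2.70 (SE 0.55, edgeR adjusted p = 0.0164) in the Myh6 model. Stc2, an inhibitor of the protease that releases IGF from its binding proteins, fell by 0.76 in EIIa-tg and rose by 1.23 in Myh6-tg hearts, and the difference was 1.99 (SE 0.39, edgeR adjusted p = 0.0175).

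Igf2bp2, which encodes an RNA-binding protein that binds Igf2 mRNA, rose in both models, by 1.11 (edgeR adjusted p = 0.0314) and 1.71 (edgeR adjusted p = 0.0138). The ligand gene Igf1 passed in the EIIa model, at 17.8 ± 4.91 normalised CPM in controls and 31.7 ± 6.27 in EIIa-tg hearts, with a log2 fold change of 0.83 (SE 0.21, edgeR adjusted p = 0.0357). In the Myh6 model Igf1 was at 0.32 (SE 0.34, edgeR adjusted p = 0.552).

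**Figure D5:**
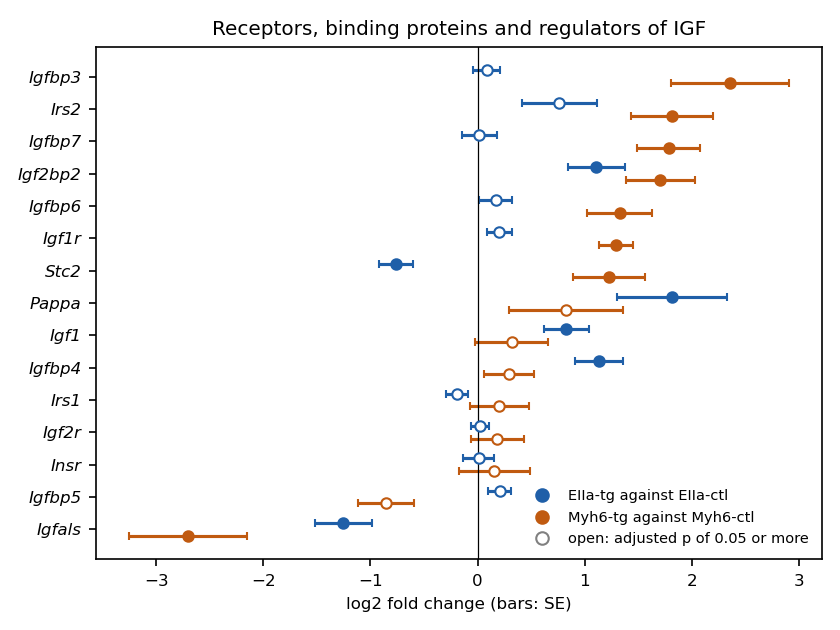
Log2 fold change with its SE (x axis) of the 15 tested genes of the IGF axis (y axis, ordered by the Myh6 value) in the EIIa (blue) and Myh6 (orange) comparisons, with open points where the adjusted p was 0.05 or more. Igf1r is at 1.29 in the Myh6 and 0.20 in the EIIa comparison, and Igfals is negative in both.

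Of 29 listed neighbours of the 6 genes in their imprinted clusters, 17 were tested in the EIIa and 20 in the Myh6 comparison. In EIIa-tg hearts 2 were higher and 3 lower, or 29.4% of the 17 beside 17.0% of all genes. In the Myh6 comparison 2 passed upward and 1 downward, or 15% of the 20 beside 18.3%. Their median log2 fold changes were 0.03 and 0.24. Tssc4, near Cdkn1c on chromosome 7, rose in both models, by 0.68 (edgeR adjusted p = 0.0405) and 1.20 (edgeR adjusted p = 0.0128). Kcnq1, a potassium channel gene of the same cluster, fell by 0.94 in EIIa-tg hearts (edgeR adjusted p = 0.0193). In the Myh6 model its log2 fold change was -1.13 (SE 0.91, edgeR adjusted p = 0.423). Kcnq1 stood at 33.9, 3.04 and 2.38 normalised CPM in Myh6-tg replicates 1, 2 and 3 and at 21.9 to 32.6 in Myh6-ctl hearts. Mrpl23, a mitochondrial ribosome gene near H19, fell by 1.07 in Myh6-tg hearts (edgeR adjusted p = 0.0326). Tnnt3, a fast skeletal troponin gene near H19, rose by 4.03 and 4.52 (edgeR adjusted p = 0.0135 and 0.0220), from at most 1.32 normalised CPM in any control heart to 1.63 to 48.7 in transgenic hearts. The sum of 8 skeletal muscle markers, Tnnt3 among them, was lower in each transgenic group (786 to 1903 and 401 to 1374) than in its controls (2235 to 2895 and 1677 to 2515). In every group 2 of the 8 had fewer than 3 counts in each heart, so the sums rest on the others. Only 4 were tested in the EIIa and 5 in the Myh6 comparison. In each, 1 passed upward, Tnnt3 itself, and 1 downward, beside 17.0% and 18.3% of all genes. Their medians were -0.82 and 0.58, so the Myh6 sum and median differed in direction. In Myh6-tg replicates 1, 2 and 3 Tnnt3 stood at 48.7, 7.74 and 5.07 normalised CPM, and without replicate 1 its log2 fold change was 2.84 (SE 0.62, edgeR adjusted p = 0.0160). Its call was lost without any one of the Myh6-ctl hearts (adjusted p from 0.0658 to 0.0808) and, in the EIIa model, without EIIa-ctl replicate 1 (0.0769), EIIa-ctl replicate 3 (0.0785) or EIIa-tg replicate 1 (0.0538). Phactr2, beside Plagl1, fell by 0.39 in EIIa-tg hearts (edgeR adjusted p = 0.0407).

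Of 36 further imprinted genes, 28 were tested in the EIIa and 26 in the Myh6 comparison. In EIIa-tg hearts 1 was higher and 4 lower, or 17.9% of the 28 beside 17.0% of all genes, and in the Myh6 comparison 1 passed upward and 2 downward, or 11.5% of the 26 beside 18.3%. Their medians were 0.13 and -0.01. Mest, a paternally expressed gene of fetal growth, had 13.4, 19.6 and 14.3 normalised CPM in EIIa-ctl and 1.80, 6.22 and 3.38 in EIIa-tg hearts. No EIIa-tg heart reached the lowest control, and Mest fell by 2.04 (SE 0.39, edgeR adjusted p = 0.0196). This call held in 2 of the 6 fits with a heart left out, with edgeR adjusted p up to 0.0797. In the Myh6 model the log2 fold change of Mest was -0.76 (SE 0.34, edgeR adjusted p = 0.166). Slc22a3, a monoamine transporter gene of the Igf2r cluster, fell in both models, with a log2 fold change of -1.80 (edgeR adjusted p = 0.0320) in EIIa-tg hearts (-2.40 without EIIa-tg replicate 2) and, from 88 to 302 counts to 2 to 12 counts, of -4.66 (edgeR adjusted p = 0.00724) in Myh6-tg hearts. Blcap fell by 0.55 and Inpp5f rose by 0.54 in EIIa-tg hearts, whereas Ppp1r9a fell by 1.31 and H13 rose by 0.61 in Myh6-tg hearts. Between the controls edgeR passed 0 genes in either list, with 4 neighbours and 2 further imprinted genes at an unadjusted p under 0.05, beside 11.3% of all genes, and DESeq2 passed 0 and 1.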

How the data were processed

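RNA of 12 mouse hearts was analysed, 3 in each of 4 groups taken from the labels. According to the study's methods, NEBNext Ultra libraries were read as pairs on a NovaSeq instrument, with Hisat2 used to map them to GRCm38, while the submitters' processing notes name HISAT2 2.0.4, StringTie 2.2.1, DESeq2, mm10 and GRCm39. The authors deposited counts, the unnormalized whole number of reads on each gene, and FPKM values, which they scaled to transcript length and to the fragments mapped in each heart. Counting is not stated to use strand, so reads of a gene and its antisense partner could not be told apart, and how reads shared by Igf2 and Gm49394 were assigned is not given in the sources used here. Loci that the authors named NewGene number 3135.

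The members, gene lists and tests were chosen with earlier results of these data known. In R 4.3.3 with edgeR 4.0.16, filterByExpr given the group chose the genes, TMM set the scaling and glmQLFit with glmQLFTest in its legacy form gave the test, with Benjamini-Hochberg adjustment over all genes tested. The difference between models was fitted in all 12 hearts. Floors of 3 counts cover counting error only, and the analysis was tested on simulated data. Named genes were the 10 members, up to 4 genes per list and comparison with the lowest adjusted p among those that passed, the 5 genes most like each member by Pearson r of log2 CPM (prior count 2), and Esr1, Sqstm1 and Y-linked genes as checks. Insr, Igf2r, Igf1, Irs2 and Ap4b1 were added.

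Replicate numbers were checked by the correlation of deviations from the group means. In the Myh6 comparison same-numbered hearts correlated at 0.285, 0.184 and 0.173, so the numbers behaved as pairs there, which the labels do not state. The main tests did not use this pairing, and the replicate block was run as an alternative only. In the EIIa comparison the values were 0.0602, -0.0704 and -0.0500, and between controls 0.124, 0.0604 and -0.0312, and the numbers were not taken as pairs.

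Alternatives were DESeq2 1.42.0, RLE factors, no filter, a CPM of at least 1 in 3 hearts, all 12 hearts in one fit, a replicate block, replicates 2 and 3 only, removal of mt- genes or NewGene loci, the bias-adjusted quasi-likelihood, limma 3.58.1 on log2(FPKM + 1) or log2(FPKM + 0.1) with an FPKM of at least 0.5 in 3 hearts and on log2(FPKM + 1) with no filter, the DEG thresholds, and each heart left out. Summing Gm49394 into Igf2 was added after seeing the data. Python 3.11.15 with matplotlib 3.10.9 drew the figures.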

Additional observations from a re-analysis of the deposited data

Results flagged for a closer look

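The summed Igf2 and Gm49394 counts changed by 0.77 in the EIIa model and by -0.90 in the Myh6 model on the log2 scale, and the test of the difference itself gave -1.67 (SE 0.33, edgeR adjusted p = 0.0173, all 12 hearts). In normalised CPM all 3 EIIa-tg hearts were above and all 3 Myh6-tg hearts below every control heart of their model. In CPM without the TMM factors, and in FPKM, the Myh6 groups overlapped. The sum was chosen after the 0 counts of Igf2 in Myh6-ctl replicate 2 had been seen, and with the counts as deposited the difference was -1.24 (adjusted p = 0.673).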

How the results depend on the processing

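Of 523 recomputed log2 fold changes of the members, 459 kept direction and side of the threshold, 28 lost a call, 8 gained one and 28 changed sign, none of these called. The number of members that passed in the EIIa comparison, 1, was 0 with all 12 hearts in one fit, with the replicate block, with replicates 2 and 3 only, on log2(FPKM + 1) with no filter and at the DEG thresholds, and 0 to 1 with each heart left out. In the all-heart fit Igf2 had an adjusted p of 0.692, or 0.0964 when summed. In the Myh6 comparison the number, 1, was 3 on log2(FPKM + 1) and log2(FPKM + 0.1) with the filter, 2 on log2(FPKM + 1) with no filter, 2 with Gm49394 summed, 0 at the DEG thresholds and 0 to 2 with each heart left out, being 0 without Myh6-ctl replicate 1 and 2 without Myh6-ctl replicate 2. For the difference the number, 0, was 1 with Gm49394 summed and 0 to 1 with each heart left out, being 1 without Myh6-ctl replicate 2 or without Myh6-tg replicate 1. The causes were not tested.

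FPKM moved the median of all genes, to 0.16, 0.34 and 0.16 for the EIIa and Myh6 comparisons and the difference with log2(FPKM + 1) and the filter, to 0.20, 0.43 and 0.19 with log2(FPKM + 0.1), and to 0.14 for the Myh6 comparison with no filter. On log2(FPKM + 1), with or without the filter, signs changed for Plagl1 (0.17) and Grb10 (0.0898) in the EIIa comparison, Igf2 (0.42) in the Myh6 comparison and Plagl1 (-0.00058) for the difference. On log2(FPKM + 0.1) they changed for Plagl1 (0.28) and Grb10 (0.10) in the EIIa comparison, Igf2 (1.38) in the Myh6 comparison and Igf2 (0.43) for the difference. With the replicate block Igf2 as deposited was 0.52 and Plagl1 -0.0845 in the Myh6 comparison, and the block changed no call of a member other than Igf2 in the EIIa comparison (adjusted p = 0.0701) and Peg3 as a DEG. The EIIa numbers were not pairs, and its hearts did not all correlate best with their own number. With replicates 2 and 3 only, Plagl1 was -0.67 and Cdkn1c -0.0421 in the Myh6 comparison, Cdkn1c 0.0227 between the controls and Plagl1 -0.51 for the difference. Without mt- genes Plagl1 was -0.0081 in the Myh6 comparison.

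With each heart left out, Plagl1 ranged from -0.19 to 0.0483 in the EIIa comparison, from -0.51 to 0.36 in the Myh6 comparison and from -0.44 to 0.44 for the difference, and Igf2 as deposited from -1.06 to 0.11 in the Myh6 comparison. The cause of these changes was not tested. Of 28 mean levels, 25 moved by less than 1 SD with CPM by total counts. FPKM levels are in another unit and stand in the report. With 3 hearts per group, and with Dlk1 at 0 to 16 counts, small differences were not detectable.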

Other observations

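Other growth and cell-cycle genes were also measured. Of the CDK inhibitor genes, relatives in function of Cdkn1c, Cdkn1a (p21) passed in both models, from 14.2 to 42.0 normalised CPM in EIIa-ctl to 143 to 398 in EIIa-tg hearts and from 62.6 to 106 in Myh6-ctl to 184 to 667 in Myh6-tg hearts. Its log2 fold changes were 3.49 and 2.47, and Cdkn2b passed in the Myh6 model at 2.29, so that 1 of 5 and 2 of 6 passed, beside 17.0% and 18.3% of all genes. Without EIIa-ctl replicate 2 the value of Cdkn1a in the EIIa model was 4.18. Among 12 proliferation genes edgeR passed 0 in the EIIa comparison, beside 17.0% of all genes, with 2 at an unadjusted p under 0.05 (beside 34.9%) and 0 passed by DESeq2. The test passed 1 in the Myh6 comparison, beside 18.3% of all genes and where DESeq2 passed 2, the kinetochore gene Cenpf, which fell by 2.55 from 9.25 ± 5.06 to 1.58 ± 1.02 normalised CPM. The median log2 fold change of the 12 was -0.55 in the EIIa and 0.45 in the Myh6 comparison, beside 0.02 and 0.03 over all genes. Of the genes that write, erase or guard imprints, 11 were tested in each comparison, and 2 and 1 passed beside the same shares of all genes. Tet1 (-1.41) and Tet3 (-0.63), which encode enzymes that oxidise methylated cytosine, fell in EIIa-tg hearts and the DNA methyltransferase gene Dnmt3a (-0.87) fell in Myh6-tg hearts, and Tet3 differed between the models by 0.91, as the 1 of 12 genes that passed there beside 3.92% of all genes. Of 5 tested family relatives of the members, Zfp568, a zinc-finger gene, passed in the Myh6 model at 1.83, as 1 of 5 there and 0 of 5 in the EIIa model, where DESeq2 passed 1 and 2 had an unadjusted p under 0.05.

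By Pearson r of log2 CPM over 12 hearts, which share the 4 groups and therefore carry no p, the genes most like Peg3 among 14612 were the collagen gene Col1a2 (0.990), Actr3, Slc7a5, Ltbp3 and Carhsp1 (0.989 to 0.987). Those most like summed Igf2 were Zfp768 (0.934), Mov10, Prpf40b, Ybx1 and Gata2 (0.910 to 0.887), and those most like Grb10 were Myl9 (0.922), Hps3, Stk3, Efl1 and Htr2a (0.920 to 0.908). The highest values were 0.931 for Cdkn1c (with Rnf170), 0.874 for Plagl1 (with Zmym3) and 0.892 for Dlk1 (with Gpn3), the last at counts near the floor.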
